A study of Danio rerio with 8 samples.

Results

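The 9 genes described here are transcriptional targets and feedback regulators of Wnt signaling, namely *axin2*, *lef1*, *tcf7*, *sp5a*, *sp5l*, *nkd1*, *dkk1b*, *notum1a* and *rnf43*. They were chosen by gene symbol for what is known of their role, and with earlier results of these data known. All 9 were found among the 20409 genes of the deposited table. Their RNA was measured in whole zebrafish larvae at 4 dpf, in 4 libraries of *elipsa* mutants and 4 libraries of controls. The *elipsa* mutants were homozygous for a mutation in *traf3ip1*, a gene of intraflagellar transport, and were picked by their tail, which curls downwards. The controls were siblings, wild-type and heterozygous larvae mixed, so no library holds wild-type larvae alone. No larva was treated. Each library is a pool of 30 larvae, and each of 4 clutches from heterozygous parents gave 1 mutant pool and 1 control pool, which were processed together. The comparison asks how the absence of cilia, which are lost in these mutants after neurulation, goes with gene expression in the larva.

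In canonical Wnt signaling, a secreted Wnt ligand binds a Frizzled receptor and an Lrp co-receptor at the cell surface, and this stops the complex of Axin, Apc and Gsk3 from marking β-catenin for degradation. β-catenin then enters the nucleus, joins a DNA-binding protein of the Tcf/Lef family and switches on target genes. Many of these targets encode proteins that turn the same pathway down again, so their RNA is widely read as a measure of pathway activity. In zebrafish larvae this pathway acts in the midbrain, the fins, the lateral line, the gut and many other places. The libraries are of whole larvae, so each value is an average over all of these tissues, and more cells that express a gene and more RNA per cell cannot be told apart.

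Values are the authors' normalized read counts on a log2 scale (log2 CPM), in which 1 unit is a doubling. Sorted by size, the values of the 8 libraries were nearly identical (a median span of 0.0046 at the same rank), as quantile normalization leaves them, a step that the methods do not name. A CPM value here is thus set on a scale shared by all libraries and is not a count relative to the library's own total. They are not corrected for gene length, so levels are compared between samples of a gene and not between genes. The test was limma's, run over all 20409 genes, and a gene was called at a Benjamini-Hochberg adjusted p under 0.1. Differences are mutant minus control, SDs are over 4 libraries, and intervals are the 95% intervals of limma. Clutch was left out of this fit. A second fit held clutch as a block, and its values are given where they change a call or a count. *traf3ip1* itself was lower in the mutant library of all 4 clutches, at 1.98 ± 0.32 (SD, n = 4) in mutants and 2.81 ± 0.16 (SD, n = 4) in controls. All 8 genes picked as marks of the main larval tissues, from neurons and muscle to liver and epidermis, were present in every library. Their levels were not equal between groups. Differences ran from -2.53 to 0.38, with 1 gene called lower without the block, and 3 called higher and 2 lower with it. Their summed level was 20400 to 20900 CPM in mutants and 17700 to 19700 CPM in controls. Clutch 1 stood apart in digestive genes, with a summed level of 10 exocrine pancreas genes of 513 CPM in its mutant library and 948 CPM in its control library, against 2300 to 2820 CPM in the mutant libraries and 4240 to 5570 CPM in the control libraries of the other clutches.

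None of the 9 genes was called between *elipsa* mutants and controls without the clutch term, in a comparison that called 1.52% of all genes (311 of 20409), 0.363% higher and 1.16% lower. At an unadjusted p under 0.05 in limma there were 2, *nkd1* and *rnf43*, where 12.0% of all genes passed. *rnf43* lies near the cut of 1 CPM at which the authors kept genes. Its part in this count and in those that follow cannot be read apart from that cut. With clutch as a block, *nkd1* was called higher in mutants and none was called lower, where the block called 14.3% of all genes, 6.48% higher and 7.86% lower. The differences were small. They ran from -0.04 for *notum1a* to 0.67 for *rnf43*, with a median of 0.16, and 8 of the 9 were positive, against 57.6% of all genes and a median of 0.03 over all genes. Of the 9 genes 4, *axin2*, *lef1*, *nkd1* and *rnf43*, were higher in the mutant library of all 4 clutches, and so were 18.0% of all genes, while 14.4% of all genes and none of the 9 were lower in all 4.

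**Figure D1:**
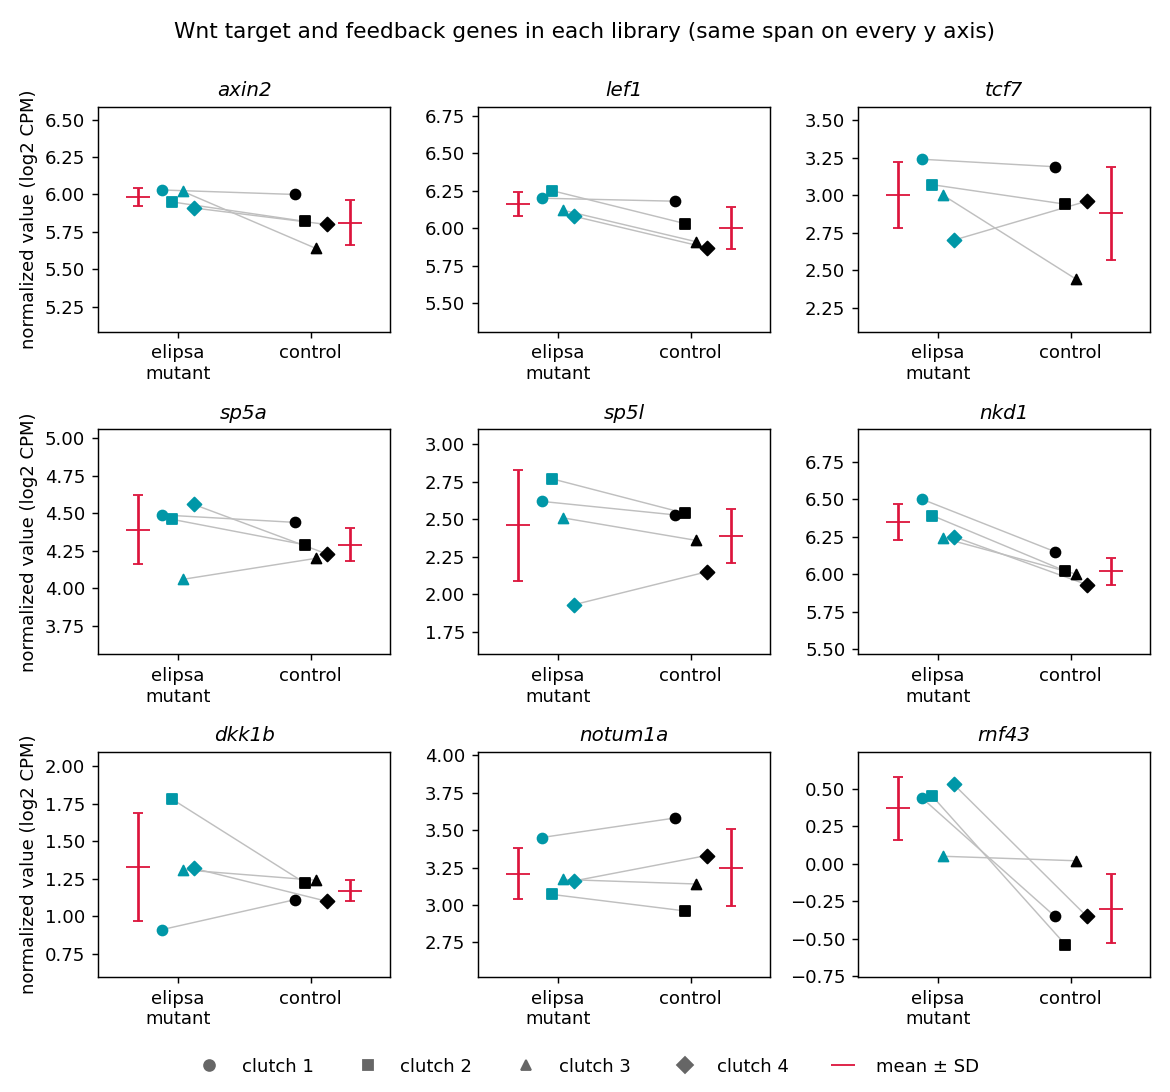
Normalized value (log2 CPM, y axis) of each of the 9 genes in the 4 *elipsa* mutant libraries (left in each panel, cyan) and the 4 control libraries (right, black), with a grey line joining the libraries of a clutch and the mean ± SD in red. The mutant libraries lie above all control libraries in *nkd1* and *rnf43*, and the groups overlap in the other 7 genes. *rnf43* lies near the cut of 1 CPM, and its difference cannot be read apart from it.

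*axin2* encodes a scaffold of the β-catenin degradation complex and is the target most often used to follow the pathway. In clutches 1 to 4 it was at 6.03, 5.95, 6.02 and 5.91 in the mutants, against 6.0, 5.82, 5.64 and 5.80 in the controls. The control of clutch 1 lay within the range of the mutants, and the control of clutch 3 was the lowest library. The means were 5.98 ± 0.06 (SD, n = 4) in mutants and 5.81 ± 0.15 (SD, n = 4) in controls, a difference of 0.16 with an interval of -0.03 to 0.36, which limma did not call (adjusted p = 0.495). On a linear scale this is 1.12-fold, with an interval of 0.98 to 1.28.

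*lef1* and *tcf7* encode DNA-binding partners of β-catenin and are targets of the pathway themselves. *lef1* was at 6.20, 6.25, 6.12 and 6.08 in the mutants of clutches 1 to 4, against 6.18, 6.03, 5.91 and 5.87 in the controls. Its mutant libraries were close to each other, and only the control of clutch 1 lay within their range. The difference was 0.17 with an interval of -0.03 to 0.36 (adjusted p = 0.492 from limma). The block brought the adjusted p to 0.119 over all clutches, and to 0.0693, a call, when both libraries of clutch 1 were left out. In that clutch the difference of *lef1* was 0.02, against 0.21 to 0.22 in the other 3 clutches.
*tcf7* was at 3.24, 3.07, 3.00 and 2.70 in the mutants of clutches 1 to 4, and at 3.19, 2.94, 2.44 and 2.96 in the controls. The order of the groups turned between clutches, with a difference of 0.56 in clutch 3 and of -0.25 in clutch 4. The mean difference was 0.12 with an interval of -0.28 to 0.52 (adjusted p = 0.842 from limma), and it was -0.03 without the control of clutch 3. *lef1* and *tcf7* are also genes of developing T cells. Of 10 genes listed as marks of T cells and thymus, 5 were measured, and their summed level was 9.51 to 11.5 CPM in mutants and 9.76 to 11.4 CPM in controls. None of the 5 was called without the block, and they did not go 1 way. *rag1*, *rag2* and *ccr9a* had differences of -0.55, -0.22 and -0.27, and *rag1* was called lower with the block (adjusted p = 0.0458 from limma). *foxn1*, a gene of the thymic epithelium, and *ikzf1* had differences of 0.55 and 0.11, both higher in the mutant of all 4 clutches and not called with the block (adjusted p = 0.179 and 0.732).
The part of these cells in the values of *lef1* and *tcf7* was not tested.

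*sp5a* and *sp5l* encode zinc finger factors of the Sp family that act downstream of Wnt ligands in the zebrafish embryo. *sp5a* was at 4.49, 4.46, 4.06 and 4.56 in the mutants of clutches 1 to 4, and at 4.44, 4.29, 4.20 and 4.23 in the controls. The mutant of clutch 3 was the lowest of all 8 libraries and the mutant of clutch 4 the highest. The mean difference was 0.10 with an interval of -0.17 to 0.38 (adjusted p = 0.792 from limma), and it was 0.21 without the mutant of clutch 3 and 0.04 without the mutant of clutch 4. *sp5a* is the only one of the 9 genes on the chromosome of *traf3ip1*, and their places are 683 apart in the RefSeq order of protein-coding genes.
*sp5l* was at 2.62, 2.77, 2.51 and 1.93 in the mutants of clutches 1 to 4, and at 2.53, 2.54, 2.36 and 2.15 in the controls. Both libraries of clutch 4 were the lowest of their group. The mean difference was 0.06 with an interval of -0.37 to 0.50 (adjusted p = 0.928 from limma). Without the mutant of clutch 2 it was -0.04, and without the control of clutch 4 it was -0.02.

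*nkd1* encodes an inhibitor that binds Dishevelled, the protein that carries the signal from the receptor into the cell. Of the 9 genes it had the difference that varied least between clutches. *nkd1* was at 6.50, 6.39, 6.24 and 6.25 in the mutants of clutches 1 to 4, and at 6.15, 6.02, 6.0 and 5.93 in the controls. Every mutant library was above every control library, as in 3.55% of all genes, while 3.34% had every mutant library below and 6.89% had no overlap in either direction. The differences within clutches were 0.34, 0.37, 0.25 and 0.32. The means were 6.35 ± 0.12 (SD, n = 4) in mutants and 6.02 ± 0.09 (SD, n = 4) in controls, a difference of 0.32 with an interval of 0.13 to 0.51 (unadjusted p = 0.00365 and adjusted p = 0.163 from limma). On a linear scale this is 1.25-fold, with an interval of 1.1 to 1.42.
With clutch as a block the standard error was 0.05, against 0.08 without it, and *nkd1* was called (adjusted p = 0.00728 from limma). It was also called with the block when both libraries of any one clutch were left out, with differences of 0.30 to 0.35 and an adjusted p of 0.0251 to 0.0353, and with the block after libraries were re-centred on 20 housekeeping genes (difference 0.27, adjusted p = 0.0258). Without the block it was called when the control of clutch 1 was left out (adjusted p = 0.0686), when both libraries of clutch 1 were (0.0793) and with weights per library (0.0798), and not when any other single library was left out.

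*rnf43* encodes a membrane ubiquitin ligase that removes Frizzled receptors from the cell surface. Its level was low, near the average of 1 CPM above which the authors kept genes. The deposited values of some genes lie below that cut, so it is not a floor of these values. *rnf43* was at 0.44, 0.45, 0.05 and 0.53 in the mutants of clutches 1 to 4, and at -0.35, -0.54, 0.02 and -0.35 in the controls, or a mean of 1.30 CPM in mutants and 0.818 CPM in controls. The control mean lies below the cut of 1 CPM and the mutant mean above it. If the cut was made on such values, *rnf43* passed it only through the mutants, the group where it is high. Its difference cannot be read apart from that cut. The groups did not overlap, but in clutch 3 the mutant was above the control by only 0.03, against 0.79 to 0.99 in the other clutches. The difference was 0.67 with an interval of 0.20 to 1.14 (unadjusted p = 0.00961 and adjusted p = 0.24 from limma), and the adjusted p with clutch as a block was 0.121. With a pseudocount of 1 the difference was 0.34.

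*dkk1b* and *notum1a* encode secreted inhibitors. The first blocks the Lrp co-receptor, and the second removes the lipid that a Wnt ligand needs to bind its receptor. *dkk1b* was at 0.91, 1.78, 1.31 and 1.32 in the mutants of clutches 1 to 4, and at 1.11, 1.22, 1.24 and 1.1 in the controls. The mutants held both the lowest and the highest library, and their SD was 0.36, against 0.07 in the controls. The mean difference of *dkk1b* was 0.16 with an interval of -0.27 to 0.60 (adjusted p = 0.79 from limma), and it was 0.01 without the mutant of clutch 2 and 0.30 without the mutant of clutch 1.
*notum1a* was at 3.45, 3.07, 3.17 and 3.16 in the mutants of clutches 1 to 4, and at 3.58, 2.96, 3.14 and 3.33 in the controls. It was higher in the mutant of 2 clutches and lower in the mutant of the other 2. The mean difference was -0.04 with an interval of -0.38 to 0.30 (adjusted p = 0.94 from limma), and it was 0.07 without the control of clutch 1 and 0.00 without the mutant of clutch 2.

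**Figure D2:**
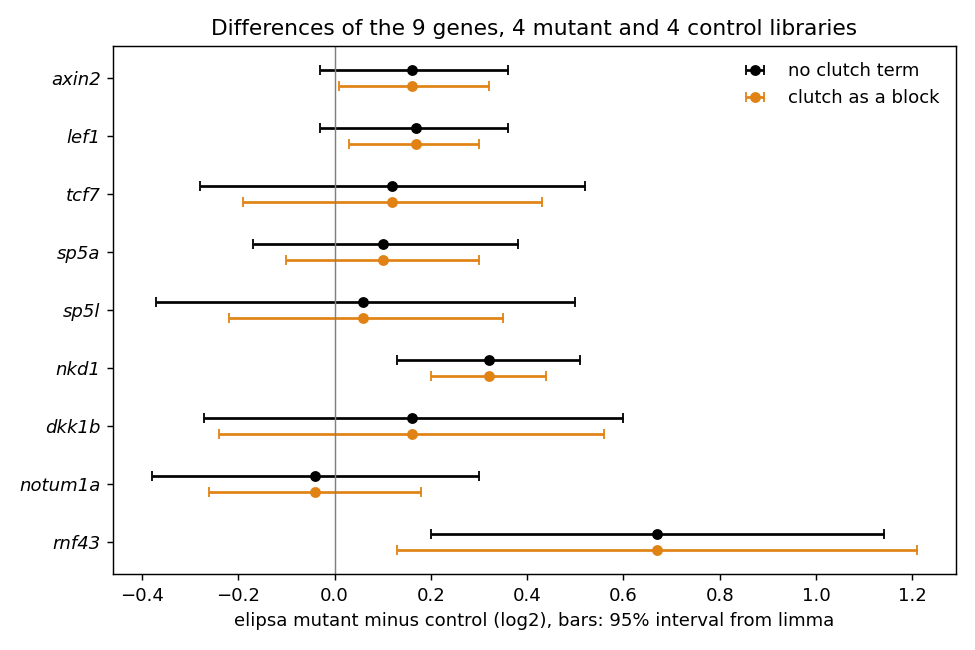
Difference of *elipsa* mutants minus controls (log2, x axis) for each of the 9 genes, with the 95% interval of limma without a clutch term (black) and with clutch as a block (orange), from 4 libraries a group. The intervals of *nkd1* and *rnf43* lie above 0 in both fits, those of *axin2* and *lef1* with the block only, and those of the other 5 genes span 0. Intervals are not adjusted for the number of genes tested, and *rnf43* lies near the cut of 1 CPM.

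For the 7 genes other than *nkd1* and *rnf43*, the intervals without the block together ran from 0.768-fold to 1.51-fold, and with the block from 0.833-fold to 1.48-fold. With the block those of *axin2* (1.01 to 1.25) and *lef1* (1.02 to 1.23) lay above 1. Such an interval goes with an unadjusted p under 0.05 in limma, which 5068 of the 20409 genes had with the block. With the block after re-centring on housekeeping genes, both differences were 0.12 (adjusted p = 0.452 for *axin2* and 0.404 for *lef1* from limma). A p that misses the threshold does not show equal expression. The paper counts the Hedgehog pathway among cilia-related pathways, and its targets *ptch1*, *gli1* and *hhip* are set beside these genes. They were picked with their values known, so they are not a neutral measure of scale. Their differences were -0.30, -0.81 and -1.02, all 3 were lower in the mutant library of every clutch, and 2 were called, all but *ptch1* (adjusted p = 0.182 from limma, and 0.0116 with clutch as a block). Whether the Wnt genes and the Hedgehog genes differ was not tested.

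The spread over the 8 libraries was divided between genotype, clutch and the remainder, which by their degrees of freedom alone (1, 3 and 3) would hold 14.3%, 42.9% and 42.9%. The share of the sum of squares over the 8 libraries that went with clutch was 89.9% for *notum1a*, 87.2% for *sp5l* and 61.9% for *sp5a*, and the share that went with genotype in these 3 was 1.2%, 1.56% and 9.78%. In *nkd1* and *rnf43* the share of genotype was 74.1% and 75.1%, and that of *rnf43* cannot be read apart from the cut of 1 CPM. *axin2* and *lef1* lay between, each with 41.3% for genotype, and 32.0% and 48.0% for clutch. Among the controls, clutch 1 held the highest library in 6 of the 9 genes and the lowest in none. The same count was not made over all genes, so this may be a general trait of that library. In the fit with weights per library, the mutant and the control of clutch 1 had the lowest weights, 0.559 and 0.553. In clutch 1 the median difference of the 9 genes was 0.04, against 0.22, 0.15 and 0.21 in clutches 2, 3 and 4. Over all genes the median was 0.02, 0.04, 0.03 and 0.01 in clutches 1 to 4.

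**Figure D3:**
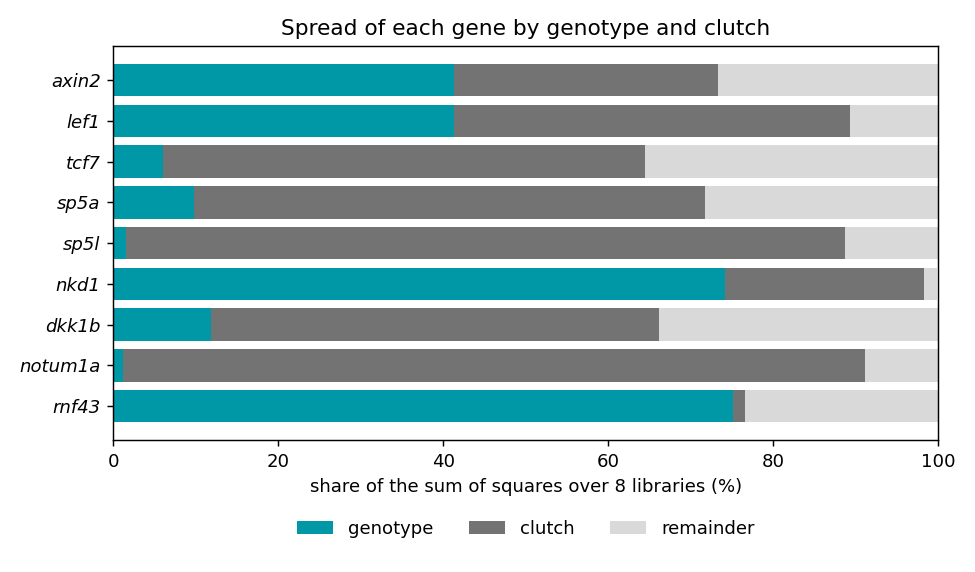
Share of the sum of squares over the 8 libraries (%, x axis) that goes with genotype (cyan), with clutch (dark grey) or with neither (light grey) for each of the 9 genes. Genotype holds 74.1% and 75.1% in *nkd1* and *rnf43* and 1.2% in *notum1a*, where clutch holds 89.9%. The share in *rnf43* cannot be read apart from the cut of 1 CPM.

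Some of the genes followed each other across libraries. Over the 8 libraries, 29 of the 36 pairs of genes had a positive Pearson correlation, with a median of 0.34. *axin2* went with *lef1* (r = 0.83), *tcf7* (r = 0.82) and *nkd1* (r = 0.76), and *lef1* with *nkd1* (r = 0.87). *dkk1b* stood aside, with r = -0.03 to *axin2* and r = -0.61 to *notum1a*. These correlations describe 8 libraries that share clutch, genotype and normalization, and the share of positive pairs among all genes was not computed. Differences within clutches gave another picture for some pairs, with r = -0.86 between *axin2* and *nkd1* over the 4 clutches. Among 15205 named genes with a mean of at least 1, the 5 most like *axin2* over the 8 libraries were *arl13a* (r = 0.972), *gja5a* (r = 0.969), *jam2b* (r = 0.966), *ccdc28b* (r = 0.964) and *cc2d2a* (r = 0.963). These 5 were picked as the highest of 15205 correlations over 8 libraries. How high the top 5 of as many unrelated genes would reach was not computed, so no tie to *axin2* is read from them.

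The other parts of the pathway were read from lists by role that hold 145 measured genes. One of them was called higher without the clutch term, and none was called lower, where 0.363% of all genes were called higher and 1.16% lower. With clutch as a block 26 were called higher (17.9%, against 6.48% of all genes) and 1 lower, where 7.86% of all genes were called lower. Of the 145 genes, 77.9% had a positive difference, with a median of 0.12, against 57.6% and a median of 0.03 over all genes. The scaling of the libraries moved these counts. The 20 housekeeping genes used for re-centring were on average 0.047 higher in mutants. They were not all stable, with differences of -0.21 to 0.70 and a median of 0.03, and 1 was called lower with the block. After re-centring on them, 66.9% of the 145 genes were positive, against 46.6% of all genes, and none of the 145 was called without the block. With it 8 of the 145 were called higher and 3 lower, against 2.84% of all genes called higher and 9.41% called lower. The 8 were among the 26, and 18 calls were lost. The calls kept were *ror1*, *ccnd1*, *fzd1*, *celsr1b*, *apcdd1l*, *wnt9b*, *wnt9a* and *myca* higher and *cdx1b* lower. Every other call with the block among these 145 genes was lost after re-centring. *sfrp1a* and *wnt4a* were called lower only after it. The same step took the share of lower genes among all calls with the block to 76.8%, against 54.8% as deposited. Genes called with the block are named below because they were called, after their values were seen. The counts by role stand beside the 6.48% of all genes called higher and the 7.86% called lower with the block.

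**Figure D4:**
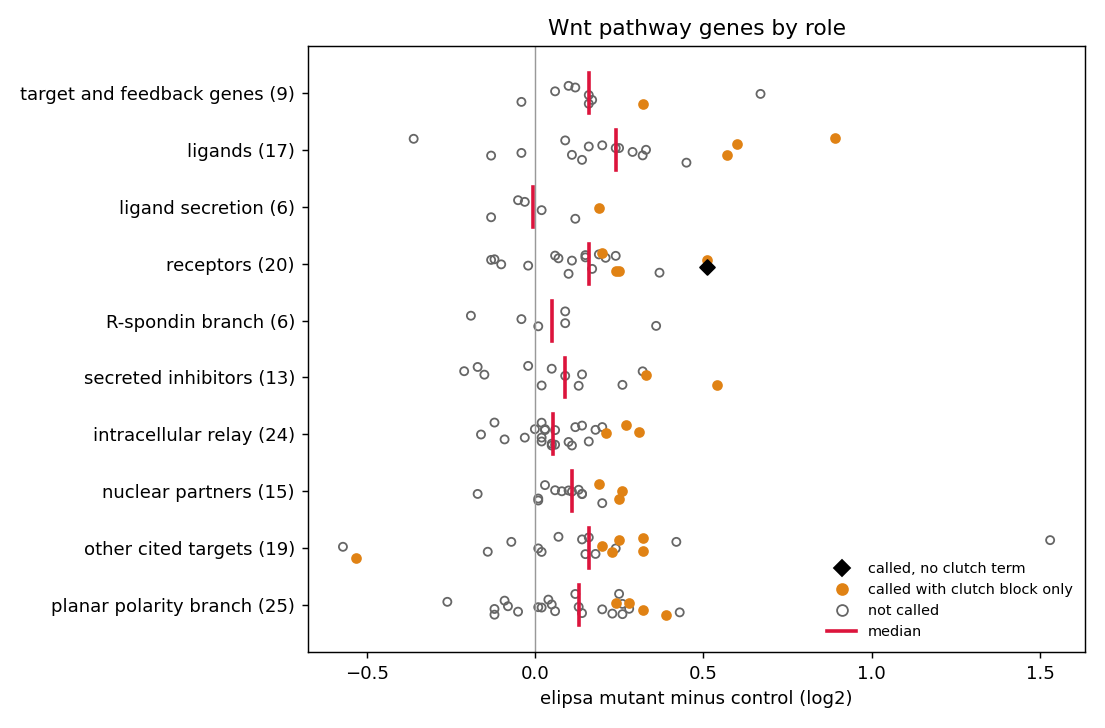
Difference of *elipsa* mutants minus controls (log2, x axis) for the 9 target and feedback genes and for the other Wnt pathway genes by role, with the number of genes in brackets. Each point is a gene, diamonds were called without a clutch term, orange points with clutch as a block only, and red bars are medians, which lie between 0.05 and 0.24 except for ligand secretion.

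Among 17 Wnt ligand genes, none was called without the block and 3 were called higher with it. The genes were *wnt9b* with a difference of 0.57 (adjusted p = 0.287 from limma, 0.0467 with the block), *wnt9a* with 0.89 (0.0605 with the block) and *wnt3a* with 0.60 (0.0798 with the block). Of these 3, *wnt9a* varied most, at 1.56 ± 0.36 (SD, n = 4) in mutants and 0.66 ± 0.79 (SD, n = 4) in controls. *wnt4a*, another ligand gene, had a difference of -0.36 and was lower in the mutant of all 4 clutches (adjusted p = 0.443 from limma, 0.113 with the block), and after re-centring it was called lower with the block (-0.41, adjusted p = 0.0995). *wnt5b*, a ligand gene of the non-canonical branch named for its mean log2 CPM, the highest on the list without regard to length, was at 5.27 ± 0.15 (SD, n = 4) in mutants and 5.11 ± 0.17 (SD, n = 4) in controls. Of 6 genes listed under the release of ligands, *wls* was called higher with the block only (difference 0.19, adjusted p = 0.0536 from limma). It encodes the carrier that brings Wnt ligands to the cell surface. The list also holds *notum1b*, a sister gene of the inhibitor gene *notum1a* and not a gene of release, with a difference of -0.13. *vps35*, a gene of the retromer that recycles the carrier encoded by *wls*, had a difference of 0.02.

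The receptors held the one call without the block. *ror1* encodes a receptor tyrosine kinase of the non-canonical branch, and it was at 4.44 ± 0.17 (SD, n = 4) in mutants and 3.94 ± 0.10 (SD, n = 4) in controls, a difference of 0.51 with an interval of 0.27 to 0.75 (adjusted p = 0.071 from limma, 0.00463 with the block). It was higher in the mutant of all 4 clutches. The call was lost when any one of 6 of the 8 libraries was left out, all but the mutant of clutch 4 and the control of clutch 1, where the adjusted p reached 0.226, and after re-centring on housekeeping genes (adjusted p = 0.108). With the block it was called in all fits tried, also without any one clutch. Of 20 receptor genes 5 were called higher with the block, *ror1* and the Frizzled genes *fzd1*, *fzd7a*, *fzd3a* and *fzd2*. *fzd1* differed by 0.51 (adjusted p = 0.142 from limma, 0.0166 with the block), and the other 3 had differences of 0.20 to 0.25.

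In the R-spondin branch, which holds the ligands and Lgr receptors that act against the ligase encoded by *rnf43*, none of 6 genes was called in either fit. *rspo2* had a difference of 0.36 (adjusted p = 0.658 from limma) and *lgr4* of 0.01. *znrf3*, the sister gene of *rnf43*, was chosen after its value was seen, and its difference was 0.09 (adjusted p = 0.821 from limma). Among 13 secreted inhibitor genes none was called without the block, and with it *apcdd1l* was called higher (difference 0.33, adjusted p = 0.237 in the fit without it and 0.0274 in the fit with it), as was *dkk2* (difference 0.54, adjusted p = 0.0823 with the block). *sfrp2*, named by the same rule as *wnt5b*, had a difference of -0.17. *sfrp1a*, of the same family of secreted Wnt binders, had a difference of -0.21 and was lower in the mutant of all 4 clutches (adjusted p = 0.108 with the block), and with re-centring and the block it was called lower (-0.26, adjusted p = 0.0663).

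Inside the cell, none of 24 relay genes was called without the block. With it *ctnnb2*, *gsk3aa* and *amer2* were called higher, with differences of 0.21, 0.27 and 0.31, and all 3 calls were lost after re-centring. *ctnnb1* and *ctnnb2* both encode β-catenin, and *ctnnb1* was at 9.02 ± 0.04 (SD, n = 4) in mutants and 8.85 ± 0.11 (SD, n = 4) in controls, a difference of 0.16 (adjusted p = 0.428 from limma, 0.112 with the block). Among 15 genes of nuclear partners, *tcf7l2*, *tcf7l1a* and *ctnnbip1* were called higher with the block only, and these calls too were lost after re-centring. *tcf7l2*, a Tcf gene, was at 6.71 ± 0.07 (SD, n = 4) in mutants and 6.46 ± 0.09 (SD, n = 4) in controls, with no overlap (adjusted p = 0.208, and 0.034 with the block). *ctnnbip1* encodes an inhibitor that keeps β-catenin from Tcf proteins, and its difference was 0.19. *bcl9*, a co-activator gene, had a difference of 0.08.

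Of 19 other genes cited as Wnt targets none was called without the block, and 5 were called higher and 1 lower with it. The higher ones were *ccnd1*, the gene of cyclin D1 (difference 0.32, adjusted p = 0.277, and 0.0135 with the block), *tcf3b* with 0.25, *myca* with 0.32, *sp8a* with 0.23 and *isl1* with 0.20. *tcf3b* encodes an E-protein of the helix-loop-helix family and not a Tcf/Lef factor, but the counts of 5 and 19, and of all pathway calls above, include it. The lower one was *cdx1b*, an intestinal homeobox gene, at 3.29 ± 0.22 (SD, n = 4) in mutants and 3.83 ± 0.23 (SD, n = 4) in controls (difference -0.53, adjusted p = 0.197, and 0.023 with the block). Among 25 genes of planar cell polarity, the branch of Wnt signaling that orients cells, none was called without the block, and *celsr1b*, *prickle1b*, *vangl1* and *dact3a* were called higher with it. *celsr1b* differed by 0.39 (adjusted p = 0.182 from limma, 0.0258 with the block), and *scrib* by 0.01.

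Marks of cell types that could bear on these values were read in the same way. None of the genes of proliferating cells, neuromasts, fin fold or exocrine pancreas was called without the block. All 12 genes of proliferating cells had a positive difference, with a median of 0.14, and 1 of them, the cyclin gene *ccna2*, was called with the block (difference 0.27, adjusted p = 0.093 from limma). Their summed level was 767 to 1240 CPM in mutants and 844 to 964 CPM in controls, with overlap, and it was higher in the mutant of 3 of the 4 clutches.
The summed level of 8 genes of lateral line neuromasts was 387 to 419 CPM in mutants and 342 to 378 CPM in controls, higher in the mutant of all 4 clutches. The list did not go 1 way. *eya1* and *prox1a* were called higher with the block, with differences of 0.27 and 0.20, and *cldnb* had a difference of 0.25. The hair cell genes *myo6b* and *otofb* had differences of -0.15 and -0.11, *myo6b* with every mutant library below every control library, and *sox2*, *atoh1a* and *cxcr4b* had -0.03, 0.05 and 0.03.
The summed level of 8 fin fold genes was 2600 to 2920 CPM in mutants and 2690 to 2920 CPM in controls, higher in the mutant of 1 clutch, with *fras1* and *tfap2a* called higher and *and2* lower with the block. The exocrine pancreas list differed most. All 10 of its genes were lower in the mutant of all 4 clutches and were called lower with the block, with a median difference of -1.02. The part that the numbers of any of these cells have in the values of *nkd1*, *axin2* and the others was not tested.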

How the data were processed

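RNA of whole larvae was measured in 8 libraries, 4 of *elipsa* mutants and 4 of controls. According to the methods of the study, the authors used SOAPnuke to filter reads, HISAT2 and Bowtie2 to align them to genome and transcriptome and RSEM to count them, kept genes with an average above 1 CPM and used voom of limma, and the deposited values are log2 CPM of 20409 genes. The submitters' processing notes name the build GRCz11. Sorted values were nearly identical between libraries (a median span of 0.0046 at the same rank), as after quantile normalization, so the depth of each library is unknown. A second deposited table pairs gene identifiers with symbols. Its log2 fold changes, statistics and p-values are of the authors' own comparison and were not used.

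Groups and clutch numbers came from the sample titles. limma 3.58.1 in R 4.3.3 was fitted to all genes (empirical Bayes with a mean-variance trend, two-sided, Benjamini-Hochberg), without filter or pseudocount, and tested on simulated data. The simulated data held no clutch effect, so they could not show whether the fit with or without the block suits these libraries. Clutch numbers pair the libraries by the labels, and the deviations of mutant and control from their group means had a correlation of 0.64 in clutch 1, 0.325 in clutch 2, 0.334 in clutch 3 and 0.458 in clutch 4. In these deviations every library was closer to its clutch partner than to any other library of the other group. Replicates are separate pools. Without the block, p-values are set against the spread between the pools of a group, which includes the spread between clutches. With the block, they are set against the spread of the differences within clutches. Alternatives were the clutch block, leaving out libraries or clutches, a pseudocount of 1, a minimum mean of 1, no trend, weights per library, re-centring on 20 housekeeping genes and a threshold of 0.05. Plots were made in Python 3.11.15 (matplotlib 3.10.9).

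The 9 genes and the lists were chosen with earlier results of these data known. Named genes were the 9, *traf3ip1*, in each other list the called genes or else those with the smallest p and the highest mean, and the 5 most correlated with *axin2*. Genes called with the block or re-centring, single marker genes and the Hedgehog genes were added after their values were seen, and 1 Hedgehog gene is not reported here. Some symbols were matched through RefSeq, whose table is of another build, so no coordinates are given. No sequences are shown, as none were at hand.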

Additional observations from a re-analysis of the deposited data

How the results depend on the processing

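Each of the 9 genes was refitted under up to 22 alternatives, of which the block with a pseudocount, without the trend or with re-centring was chosen after seeing the data. *axin2*, *lef1*, *sp5a*, *nkd1*, *dkk1b* and *rnf43* kept their direction in all of them, and *rnf43* has no value under the minimum mean of 1. *nkd1* ran from 0.27 to 0.36 and was called in 11 of 22. *rnf43* was called in 1, the block without the trend (adjusted p = 0.0975 from limma), and *lef1* in 1. Leaving out single libraries, *dkk1b* ran from 0.01 to 0.30, *sp5a* from 0.04 to 0.21, *sp5l* ran from -0.04 to 0.24, *notum1a* from -0.14 to 0.07 and *tcf7* from -0.03 to 0.22. With the replicate block, *tcf7* was -0.03 without clutch 3 and *notum1a* was 0.00 without clutch 4. The cause of these turns was not tested.

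With clutch as the replicate block, 1 of the 9 genes was called higher, and among all genes 1322 were called higher and 1605 lower, against 74 and 237 without it. By role the block called 3 ligands, 1 ligand secretion gene, 5 receptors, 2 secreted inhibitors, 3 relay genes, 3 nuclear partners, 5 other cited targets and 4 polarity genes higher, and 1 other cited target lower. The block without clutch 1 called 2 of the 9, and 1239 genes higher and 1640 lower in all. The block called 1 of the 9 without clutch 2 (577 higher and 1007 lower in all), clutch 3 (367 and 922) or clutch 4 (491 and 975). It called 1 with a pseudocount (1383 and 1652) or re-centring (579 and 1921), and 2 without the trend (704 and 1179). Without the block, weights per library called 1 of the 9 (204 and 478), as did leaving out both libraries of clutch 1 (239 and 836). Leaving out single libraries called 0 to 1 of the 9, the 1 without the control of clutch 1, and 20 to 285 genes higher and 126 to 806 lower in all. Re-centring took the share of lower genes among the calls to 85.6%, against 76.2% as deposited. A threshold of 0.05 left 36 genes higher and 170 lower.

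Depth is unknown, so no limit from counting can be given, and 4 pools a group limit the precision.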
